A study of Mus musculus with 9 samples.

Results

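The annexins are a family of proteins that bind membranes in the presence of calcium. Their transcripts were followed here in 4T1, a line of cells from a BALB/c mouse with mammary carcinoma. The 10 genes are Anxa1, Anxa2, Anxa3, Anxa4, Anxa5, Anxa6, Anxa7, Anxa8, Anxa9 and Anxa11, out of 55416 genes with a row in the count tables. They were chosen by gene name, with the differences between the 3 groups of this study already known, so the annexin values and calls that follow describe these libraries and are no independent support for any pattern. The other mouse annexin genes in the tables were nearly silent: Anxa10 had 0 counts in all 9 libraries, where 3 counts would be 0.15 to 0.2 CPM (the count as a share of the library total, scaled up to a fixed sum), and Anxa13 had 1 count in PBS replicate 1 and 0 in the other libraries. All 10 listed genes passed the filter on low counts.

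The 3 groups each had 3 libraries of RNA sequencing, counted per gene, and all cells were the same unmodified line at the same time of 12 h. MRC+L cells received MRC nanoparticles and were irradiated at 660 nm for 3 min, MRC cells received the nanoparticles without light, and PBS cells were kept in medium alone. The labels do not spell out MRC, and they print the irradiance as 180 with the unit given once as mW and once as mV per square centimetre. There was no group with light and no nanoparticles. Whether replicates were grown as separate cultures is not in the labels, so p-values measure the spread among these libraries, possibly a technical one.

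Annexins share a conserved core of repeats that holds calcium between the protein and the acidic phospholipids of a membrane, phosphatidylserine among them, and each has its own N-terminal stretch that binds partners such as S100 proteins. They link the cytoskeleton to membranes, organise endosomes and secretory vesicles, and gather at wounds of the plasma membrane, where they help to close them. In carcinoma cells Anxa2 is best known as a surface site for plasminogen activation, Anxa1 as a glucocorticoid-regulated mediator that acts on formyl peptide receptors, and Anxa5 as the protein used in the laboratory to stain phosphatidylserine on dying cells.

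Promoter sequences were looked up because 6 of the genes moved together and 1 moved the other way. RefSeq promoter entries of build GRCm38.p6, which run from 250 bases before to 50 bases after a gene's start, were found for 8 of the 10 genes, with 11 entries in all. Anxa3 and Anxa6 had none. The entries were searched on both strands for TGACNNNGC, the core of the antioxidant response element, TGANTCA, the site of AP-1, TGATGNAA, the composite element bound by ATF4, and GAAANNGAA, the core of the interferon-stimulated response element. The entries of Anxa8 (chr14:34085729-34086028, plus strand), Anxa2 (chr9:69453433-69453732, plus strand) and the first of Anxa9 (chr3:95315131-95315430, minus strand) are printed 5′ to 3′ along the gene, as the gene that was higher in nanoparticle-exposed cells and the lower ones with a match, and capitals mark the match.
Anxa8: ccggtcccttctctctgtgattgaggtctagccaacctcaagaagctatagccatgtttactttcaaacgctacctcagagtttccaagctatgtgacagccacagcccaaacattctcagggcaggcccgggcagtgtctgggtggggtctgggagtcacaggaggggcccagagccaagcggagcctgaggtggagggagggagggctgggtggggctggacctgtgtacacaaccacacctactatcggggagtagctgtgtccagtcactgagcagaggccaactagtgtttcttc
Anxa2: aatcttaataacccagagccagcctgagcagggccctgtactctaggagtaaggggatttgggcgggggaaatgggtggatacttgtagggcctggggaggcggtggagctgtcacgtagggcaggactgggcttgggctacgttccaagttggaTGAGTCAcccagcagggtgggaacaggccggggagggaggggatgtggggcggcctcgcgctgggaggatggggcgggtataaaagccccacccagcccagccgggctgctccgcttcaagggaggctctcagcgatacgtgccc
Anxa9: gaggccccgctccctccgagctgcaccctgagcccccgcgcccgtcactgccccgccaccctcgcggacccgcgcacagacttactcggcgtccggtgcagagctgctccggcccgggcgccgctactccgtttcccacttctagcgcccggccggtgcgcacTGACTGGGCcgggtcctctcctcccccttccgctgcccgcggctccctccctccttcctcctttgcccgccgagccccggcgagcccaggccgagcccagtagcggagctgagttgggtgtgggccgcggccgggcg
The Anxa8 entry held none of the 4 motifs. The Anxa2 entry held TGAGTCA, an AP-1 site that reads the same on both strands, with its first base at -95 from the start. The first Anxa9 entry held TGACTGGGC, a match to the antioxidant response element at -87. The second Anxa9 entry (chr3:95307143-95307442, minus strand) held no match. Which of these entries marks the start of the gene counted here was not tested. Further matches to the antioxidant response element stood at -180 in an Anxa4 entry and at 27 in an Anxa7 entry. That element was present in 3 of the 11 annexin entries, against 12.39% of all 32851 promoters in the table. AP-1 was present in 1 of 11 entries, against 7.81%, and the ATF4 and interferon elements in 0 of 11, against 3.97% and 8.56%. These matches are letters in a window and were not tested as sites.

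Library totals lay between 15019765 and 20044166 counts. Levels are CPM with TMM scaling (trimmed mean of M values), and levels of different genes are set side by side only per kilobase of exon. PBS replicate 2 stood apart from the other 8 libraries: genes with short exon models lay 1.07 above genes with long ones on the log2 scale, against -0.26 to 0.12 in the others. The coefficient of variation between replicates was 0.0578 in MRC+L, 0.0808 in MRC and 0.281 in PBS. Of the epithelial markers, Krt8 averaged 310.9, 352.4 and 717.9 CPM and Krt18 175, 201.5 and 577.3 CPM in MRC+L, MRC and PBS cells, while Epcam had 0 to 5 counts in a library and Krt5, a basal keratin, had 0 in every library. Krt14, the other basal keratin of the list, had 1.404 to 1.473 CPM in MRC+L, 1.63 to 1.963 CPM in MRC and 0.1045 to 0.4117 CPM in PBS. Its PBS levels were near the detection limit, and it passed the filter on low counts through the exposed libraries alone. A gene kept in this way can hardly be called lower. Its calls by edgeR, 5.58-fold higher in MRC+L (adjusted p = 0.000968) and 6.97-fold higher in MRC (adjusted p = 0.000528), are therefore no support for a rise. In MRC+L, MRC and PBS cells, Krt7 averaged 73.65, 88.75 and 107.7 CPM, Cdh1 2.553, 3.199 and 4.658 CPM, and Krt19 1.492, 0.6149 and 0.998 CPM. The summed level of the 8 epithelial markers, mostly Krt8 and Krt18, was 560 to 572 CPM in MRC+L, 634 to 667 in MRC and 1060 to 1880 in PBS. Of the 8 leukocyte markers, 7 had at most 20 counts in every library, with Cd3e and Adgre1 at 0 in every library, and their sum, mostly Cd68, was 18.6 to 20.1, 17 to 22.8 and 7.16 to 12.1 CPM in the same order. The sum of the 8 fibroblast and endothelial markers, mostly Pdgfra, was 77.1 to 87.7, 80.3 to 97.2 and 46.3 to 83 CPM in that order. Pdgfra averaged 71.93, 77.19 and 44.24 CPM. Pdgfrb went the other way, at 5.493, 6.143 and 17.06 CPM, and was called 3.1-fold lower in MRC+L (adjusted p = 0.000447) and 2.76-fold lower in MRC (adjusted p = 0.000996) by edgeR. The part of these markers in the annexin values was not tested, and in bulk RNA fewer cells of a type and less RNA per cell cannot be told apart.

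Set against cells in medium, 6 annexins were lower and 1 was higher in both nanoparticle groups by the quasi-likelihood test of edgeR, with p-values adjusted over all genes by Benjamini-Hochberg and called under 0.05. The lower ones were Anxa1, Anxa2, Anxa3, Anxa5, Anxa6 and Anxa9, at 1.54-fold to 2.38-fold lower in MRC+L and 1.45-fold to 2.29-fold lower in MRC cells. Anxa8 was the higher one, 5.83-fold in MRC+L and 6.36-fold in MRC cells. In MRC+L against PBS, 6 of 10 annexins were called lower beside 24.5% of all 13439 genes tested, and 1 was called higher beside 21.8%. In MRC against PBS, 6 were called lower beside 19.8% of all genes and 1 higher beside 17.8%. The median log2 fold change of the 10 genes was -0.69 in MRC+L and -0.71 in MRC, against -0.03 over all genes in both. Both comparisons use the same 3 PBS libraries, and the members were chosen with these contrasts known, so nothing is read from these shares.

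**Figure D1:**
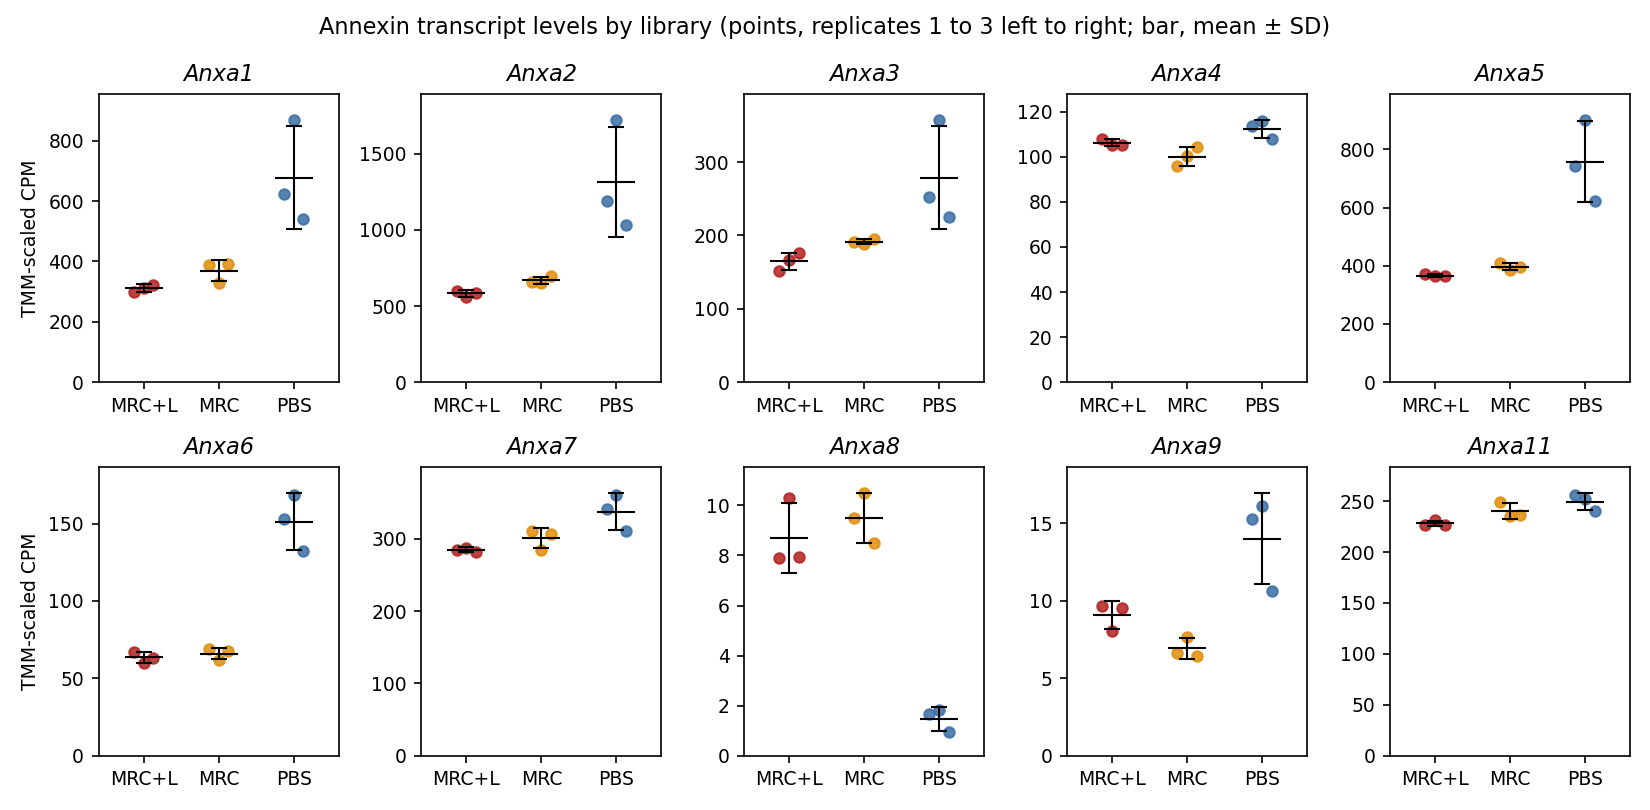
TMM-scaled CPM (y axis, from 0) of the 10 annexins in MRC+L, MRC and PBS cells (x axis), with each library as a point and the mean ± SD as bars, n = 3 a group. Anxa1, Anxa2, Anxa3, Anxa5, Anxa6 and Anxa9 were lower in all 6 nanoparticle-exposed libraries than in any PBS library, and Anxa8 was higher in all 6. Groups were also apart from PBS for genes without a call, Anxa4 in MRC and Anxa7 and Anxa11 in MRC+L. PBS replicate 2 was the highest PBS library for all but Anxa11.

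Anxa2 forms a complex with S100a10 at the inner face of the plasma membrane and binds plasminogen and its activator at the cell surface. The gene (ENSMUSG00000032231, GRCm39 chromosome 9, 69360902 to 69399077, plus strand, 15 exon blocks) had 600.4, 559.9 and 587.3 CPM in the MRC+L libraries, 659, 651 and 695.2 CPM in the MRC libraries, and 1187, 1723 and 1030 CPM in the PBS libraries. All exposed libraries lay below all PBS libraries, and PBS replicate 2 was the highest. The log2 fold change was -1.17 ± 0.17 (SE, adjusted p = 0.000426) for MRC+L and -0.97 ± 0.17 (adjusted p = 0.00157) for MRC, both against PBS by edgeR. Without PBS replicate 2 the values were -0.93 and -0.74, and both calls held. Of its exon bases 2.6% overlap Gm16144 on the other strand, which had 7 to 15 counts in a library.

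Anxa1, which restrains inflammation through formyl peptide receptors and was first described as an inhibitor of phospholipase A2, followed the same pattern. It lies on chromosome 19 of GRCm39, 20350792 to 20368308, minus strand (ENSMUSG00000024659). Its level was 299.9, 312.2 and 323.6 CPM in MRC+L, 387.4, 329.4 and 392.4 CPM in MRC, and 623, 869.7 and 540.7 CPM in PBS. The groups with nanoparticles did not overlap with PBS, nor with each other, since every MRC+L library lay below every MRC library. In edgeR the log2 fold change was -1.12 ± 0.17 in MRC+L (adjusted p = 0.000488) and -0.87 ± 0.17 in MRC (adjusted p = 0.00253), each against PBS. Without PBS replicate 2 it was -0.90 in MRC+L and -0.66 in MRC, and both calls held.

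Anxa5 covers exposed phosphatidylserine with a planar lattice and is the most abundant annexin of these cells per length. The gene (ENSMUSG00000027712, GRCm39 chromosome 3, 36503072 to 36530043, minus strand) had 371.5, 363.5 and 364.3 CPM in MRC+L, 409, 385.6 and 394.6 CPM in MRC, and 744.5, 902 and 624.4 CPM in PBS. Libraries of a nanoparticle group lay within a narrow band, and the PBS libraries were spread more widely and all above them. The log2 fold change by edgeR was -1.05 ± 0.13 in MRC+L (adjusted p = 0.000175) and -0.93 ± 0.13 in MRC (adjusted p = 0.000453). Leaving out PBS replicate 2 gave -0.90 and -0.79 for these comparisons, both called.

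Anxa6, which has a duplicated core and takes part in membrane repair and in the traffic of cholesterol through late endosomes, showed the lowest fold change of the family. It lies on chromosome 11 of GRCm39, 54869934 to 54924271, minus strand, in 26 exon blocks (ENSMUSG00000018340). MRC+L libraries had 67.3, 59.98 and 63.31 CPM, MRC libraries 68.77, 61.78 and 67.45 CPM, and PBS libraries 153, 168.7 and 132 CPM. The exposed groups overlapped each other and lay well below PBS. By edgeR the log2 fold change was -1.25 ± 0.11 in MRC+L (adjusted p = 2.38e-05) and -1.20 ± 0.11 in MRC (adjusted p = 4.26e-05). PBS replicate 2 moved these values little, to -1.17 and -1.12 when it was left out.

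Anxa3, known from human neutrophils as a protein that aggregates granules, differed less. The gene (ENSMUSG00000029484, GRCm39 chromosome 5, 96941198 to 96993825, plus strand) had 151.8, 165.9 and 175.8 CPM in MRC+L, 191.2, 188.5 and 194.8 CPM in MRC, and 252.4, 357.7 and 224.6 CPM in PBS. No group overlapped another. The edgeR log2 fold change against PBS was -0.76 ± 0.16 in MRC+L (adjusted p = 0.00361) and -0.54 ± 0.16 in MRC (adjusted p = 0.0234). The call in MRC was lost without any 1 of the MRC libraries (adjusted p = 0.064 to 0.0765) and in a fit to the 6 MRC and PBS libraries alone (adjusted p = 0.0686). Without PBS replicate 2 the MRC value was -0.32, over 1.5 times smaller, and was called (adjusted p = 0.00321), and the MRC+L value was -0.54.

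Anxa9, an annexin whose calcium-binding sites are poorly conserved, was a minor transcript. The gene (ENSMUSG00000015702, GRCm39 chromosome 3, 95203407 to 95214487, minus strand) had 9.669, 8.033 and 9.526 CPM in MRC+L, 6.649, 7.686 and 6.448 CPM in MRC, and 15.25, 16.11 and 10.64 CPM in PBS. The 3 groups did not overlap, with MRC lowest and PBS highest. In edgeR the log2 fold change was -0.62 ± 0.18 in MRC+L (adjusted p = 0.0173) and -1.02 ± 0.18 in MRC (adjusted p = 0.00179). In MRC+L the call needed PBS replicate 1 and MRC+L replicate 2, and with either left out the adjusted p by edgeR was 0.0604 and 0.0718. Its counts, 105 to 292 in a library, are uncertain because no strand was used in counting. Mindy1 on the other strand, with 848 to 1446 counts, shares 3.4% of the Anxa9 exon bases, and 6330562C20Rik on the same strand shares 4.5%.

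Anxa8, found in squamous epithelia and in basal cells of the mammary gland and known to organise late endosomes, went the other way. It lies on chromosome 14 of GRCm39, 33807938 to 33822528, plus strand, in 12 exon blocks (ENSMUSG00000021950). MRC+L libraries held 146, 154 and 134 counts, MRC libraries 150, 180 and 171 counts, and PBS libraries 32, 31 and 15 counts. As levels these were 7.886, 10.31 and 7.928 CPM in MRC+L, 9.498, 10.48 and 8.481 CPM in MRC, and 1.671, 1.823 and 0.9336 CPM in PBS. Every exposed library lay above every PBS library, and the exposed groups overlapped. Of the basal keratins, Krt14 was near the detection limit in PBS and higher in all exposed libraries, and Krt5 was at 0. Krt14 passed the filter on low counts through the exposed libraries alone, so its values are no support for a rise. The part of these keratins in the Anxa8 values was not tested. The log2 fold change was 2.54 ± 0.25 in MRC+L (adjusted p = 3.3e-05) and 2.67 ± 0.25 in MRC (adjusted p = 3.28e-05) by edgeR. Without PBS replicate 2 it was 2.70 and 2.82 in these comparisons. Among the 13439 genes tested and ordered by level per length, Anxa8 stood at place 7685 in MRC+L, 7473 in MRC and 11272 in PBS.

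Anxa4, Anxa7 and Anxa11 were not called in either comparison with PBS. Even so, their libraries did not overlap with PBS for Anxa4 in MRC and for Anxa7 and Anxa11 in MRC+L. Lack of overlap with PBS is thus no support for a difference by itself. Anxa4, an epithelial annexin of secretory and internal membranes, had 105.1 to 108 CPM in MRC+L, 95.74 to 104.3 CPM in MRC and 107.9 to 115.7 CPM in PBS. Its log2 fold change was -0.082 (adjusted p = 0.465) in MRC+L and -0.17 (adjusted p = 0.161) in MRC by edgeR. Anxa7, first described as synexin for its fusion of chromaffin granules, had 281.6 to 287.7 CPM in MRC+L, 285 to 310.9 CPM in MRC and 310.7 to 361 CPM in PBS. The log2 fold change of Anxa7 was -0.25 ± 0.098 in MRC+L (adjusted p = 0.0628) and -0.17 (adjusted p = 0.205) in MRC by edgeR. That MRC+L value was called by DESeq2 (adjusted p = 0.0181), and by edgeR without PBS replicate 2 (adjusted p = 0.0418) or without PBS replicate 3 (adjusted p = 0.0254). Anxa11, which tethers RNA granules to lysosomes and binds ALG-2, had 226.5 to 231.1 CPM in MRC+L, 235.8 to 249.5 CPM in MRC and 240.6 to 256.4 CPM in PBS. Its log2 fold change was -0.13 (adjusted p = 0.251) in MRC+L and -0.053 (adjusted p = 0.666) in MRC by edgeR. A voom fit with library weights also called Anxa4 and Anxa7 lower in MRC (adjusted p = 0.011 and 0.0125) and Anxa7 and Anxa11 lower in MRC+L (adjusted p = 0.000179 and 0.00642).

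**Figure D2:**
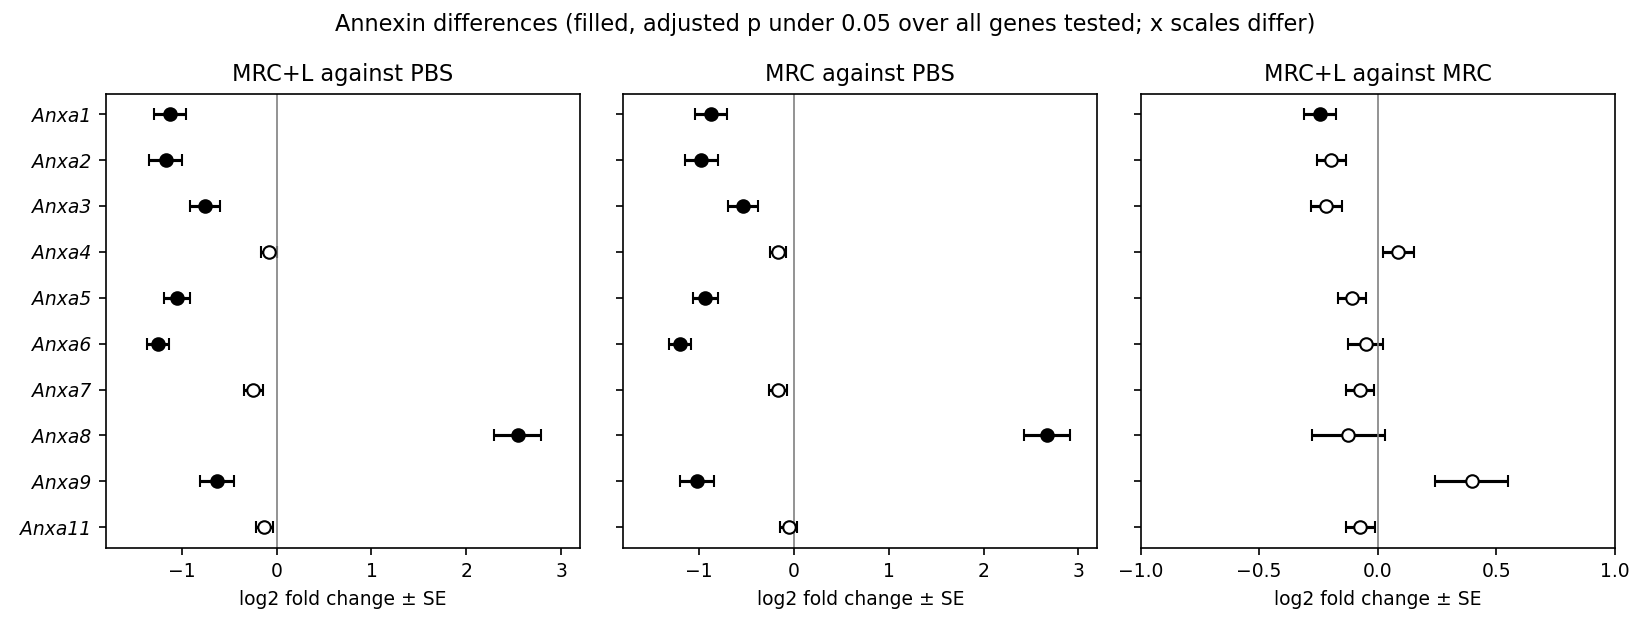
Log2 fold change ± SE (x axis, scale wider in the left and middle panels) of the 10 annexins in MRC+L against PBS, MRC against PBS and MRC+L against MRC, with filled points for an adjusted p under 0.05. Anxa8 is the only point right of 0 among the filled ones, and Anxa1 is the only filled point in the comparison of MRC+L with MRC.

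PBS replicate 2 lay above the mean of the other PBS libraries for all 10 annexins, by 0.58 for Anxa1, 0.64 for Anxa2, 0.59 for Anxa3, 0.40 for Anxa5, 0.25 for Anxa6, 0.50 for Anxa8 and 0.34 for Anxa9 on the log2 scale, and by 0.02 to 0.15 for Anxa4, Anxa7 and Anxa11. With all tested genes in 5 classes by exon length, numbered from the shortest, that difference had medians of 0.58, 0.30, 0.01, -0.23 and -0.58. Anxa5, Anxa8 and Anxa9 belong to class 1, Anxa1 and Anxa6 to class 2, Anxa2, Anxa3, Anxa4 and Anxa11 to class 3, and Anxa7 to class 4. The calls of the 7 annexins in both comparisons held without that library. The fold changes of the 6 lower ones were then nearer to 0, and that of Anxa8 was further from it.

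The comparison of MRC+L with MRC asks what irradiation added to the nanoparticles, and it was fitted to those 6 libraries alone. Of the 10 annexins, 1 was called lower, Anxa1, beside 1.91% of the 12955 genes tested, and 0 were called higher beside 3.13%. Anxa1 had a log2 fold change of -0.24 ± 0.068 (adjusted p = 0.0413) by edgeR, or 1.18-fold lower with light. The call was lost when MRC replicate 1 or 3 or any 1 MRC+L library was left out (adjusted p = 0.0811 to 0.199), and in a fit to all 9 libraries (adjusted p = 0.988). Anxa2 and Anxa3 were 1.14-fold and 1.16-fold lower with light and missed the threshold (adjusted p = 0.0634 and 0.0565, edgeR). Their libraries did not overlap between the groups, but neither did those of Anxa4, Anxa5 and Anxa11 (adjusted p = 0.46, 0.296 and 0.518, edgeR). Lack of overlap is thus no support for a difference here. DESeq2 called Anxa2 and Anxa3 (adjusted p = 0.0189 and 0.0339). Anxa9 had the largest difference, 0.40 ± 0.15 on the log2 scale or 1.32-fold higher with light, and was not called (adjusted p = 0.136, edgeR). At an unadjusted p under 0.05, 1 annexin was higher and 3 were lower, and DESeq2 called 0 higher and 3 lower. For Anxa8, which was high in both groups, the difference was -0.12 ± 0.15 (adjusted p = 0.691, edgeR) and the libraries overlapped. The median of the 10 genes was -0.09, against -0.01 over all genes.

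Taken per kilobase of exon, the 10 annexins summed to 670.9 ± 6.53 in MRC+L, 742.6 ± 25.7 in MRC and 1287 ± 266 in PBS (TMM-scaled CPM per kilobase, SD, n = 3 each). By library the sums were 672.1, 663.9 and 676.8 in MRC+L, 756.9, 713 and 758 in MRC, and 1224, 1579 and 1059 in PBS. Every exposed library had a lower sum than every PBS library, and every MRC+L library a lower sum than every MRC library. No test was run on the sum. Anxa5, Anxa2 and Anxa1 made up most of it in every group. The share of Anxa5 was 30.7% in MRC+L, 30% in MRC and 33.2% in PBS, that of Anxa2 was 23.3%, 24.1% and 27.1%, and that of Anxa1 was 16%, 17.1% and 18%, in the same order of groups. The annexins without a call held a larger share of the smaller sum, but this was not particular to them. Anxa3, called lower, made 6.73% in MRC+L, 7.08% in MRC and 5.9% in PBS. Anxa9, also called lower, made 0.652%, 0.451% and 0.526% in the same order. Anxa11 made 8.23% in MRC+L, 7.84% in MRC and 4.8% in PBS, Anxa7 made 7.08%, 6.76% and 4.46%, and Anxa4 made 3.41%, 2.9% and 1.92%. Anxa8 remained below 1 percent throughout, at 0.691% in MRC+L, 0.681% in MRC and 0.0603% in PBS.

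**Figure D3:**
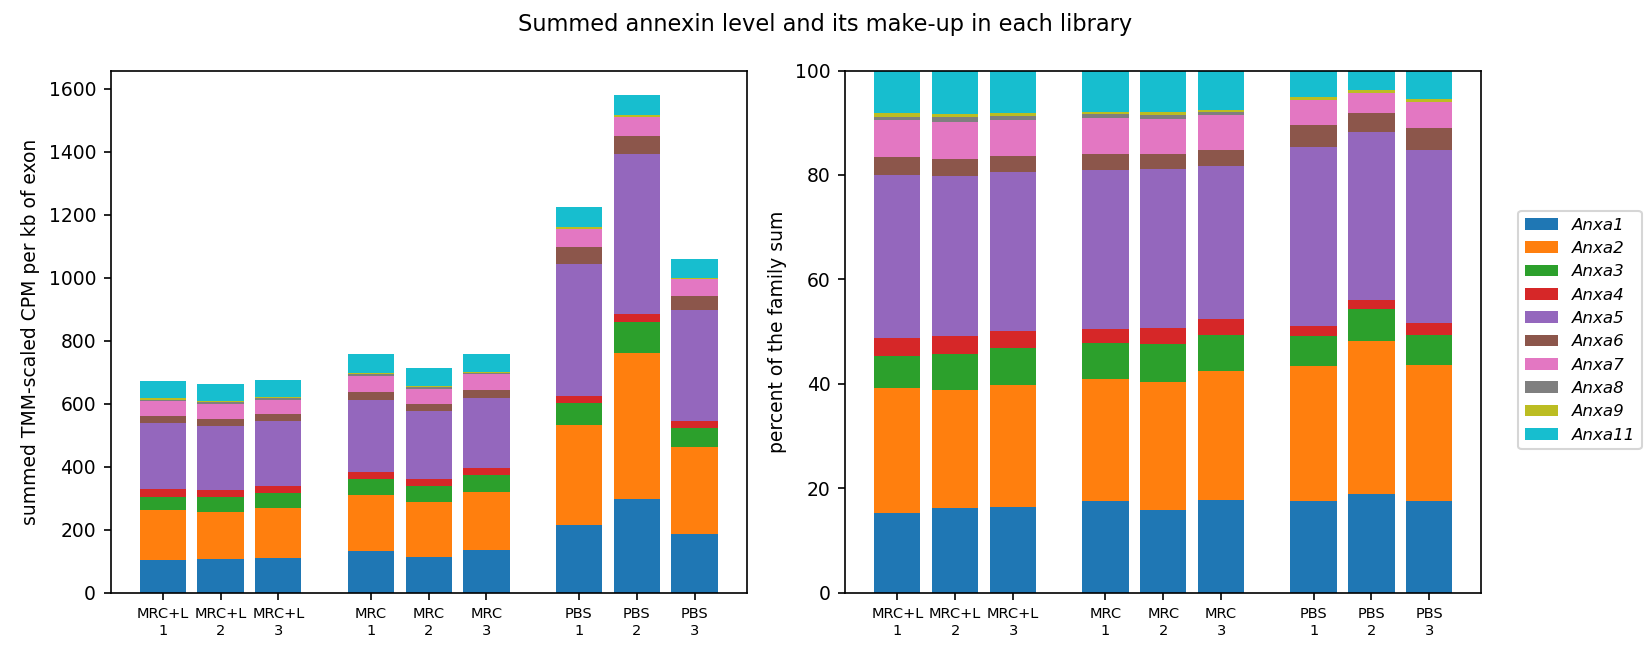
Summed TMM-scaled CPM per kilobase of exon (left y axis) and the percent of that sum held by each annexin (right y axis) in each of the 9 libraries (x axis). The sums lie between 663.9 and 676.8 in MRC+L, 713 and 758 in MRC, and 1059 and 1579 in PBS, and the band of Anxa11 is wider in the exposed libraries.

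The order of the annexins per length began with Anxa5, Anxa2 and Anxa1 in every group. In MRC+L cells their levels were 206.2 ± 2.46, 156.1 ± 5.54 and 107.2 ± 4.08 CPM per kilobase, and in MRC cells 223.1 ± 6.64, 179.1 ± 6.32 and 127 ± 12 (SD, n = 3), without overlap between neighbours. In PBS cells they were 426 ± 78.4, 352 ± 97.4 and 232.9 ± 58.8 CPM per kilobase, and the libraries of neighbours overlapped. Anxa11 held place 4 in MRC+L and in MRC, at 55.19 ± 0.608 and 58.18 ± 1.87 CPM per kilobase, and place 5 in PBS at 60.37 ± 1.98, where it overlapped with Anxa3 and Anxa7. Anxa3 and Anxa7 overlapped as neighbours in MRC+L and in MRC, as did Anxa4 and Anxa6. Anxa6 stood clear of Anxa4 in PBS, at 51.61 ± 6.29 against 24.2 ± 0.877 CPM per kilobase. Anxa8 and Anxa9 closed the order everywhere. Anxa8 came before Anxa9 in MRC+L, where they overlapped at 4.632 ± 0.738 and 4.378 ± 0.437, and in MRC, where they did not, at 5.046 ± 0.532 and 3.342 ± 0.321. In PBS Anxa9 came first, with 6.755 ± 1.42 against 0.7851 ± 0.253 CPM per kilobase for Anxa8.

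Across the 9 libraries, the 15 pairs among the 6 lower annexins had correlations of log2 CPM between 0.728 and 0.99, and Anxa8 had correlations of -0.942 to -0.586 with the other 9 genes. The 9 points fall into 2 clusters, PBS and exposed, and share depth and library, so these values describe the group differences above. The genes outside the family whose levels were most like those of Anxa8 were Pwp1 (r = 0.9953), Zfp623 (r = 0.9946) and Rabl6 (r = 0.9936). They are 3 of 1043 genes with r over 0.9 among 11623 protein-coding genes.

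Partners of annexins were read from 7 lists with 81 genes, and each list's count of calls stands against 24.5% of all genes lower and 21.8% higher in MRC+L, and 19.8% lower and 17.8% higher in MRC, each against PBS. S100 proteins are small calcium-binding proteins, and S100a10 and S100a11 bind the N-termini of Anxa2 and Anxa1. Of 15 S100 genes, 10 were tested, and 10 were lower in MRC+L and 9 in MRC than in PBS (24.5% and 19.8% of all genes), with 0 higher, at a median log2 fold change of -1.55 and -1.20 against -0.03 over all genes. S100a10 had 189.6, 194.7 and 194.3 CPM in MRC+L, 221.8, 203.7 and 241.1 CPM in MRC, and 417.6, 761.8 and 360.1 CPM in PBS. S100a11 had 117.9, 114 and 109.6 CPM in MRC+L, 119.6, 137.7 and 147.5 CPM in MRC, and 308.5, 636.7 and 256.9 CPM in PBS. Both were lower in all exposed libraries than in any PBS library. By edgeR S100a11 was 3.52-fold lower in MRC+L (adjusted p = 0.000688) and 2.97-fold in MRC (adjusted p = 0.00193), and S100a10 was 2.66-fold lower (adjusted p = 0.00103) and 2.31-fold lower (adjusted p = 0.00307). S100a6, a partner of several annexins, was 2.73-fold lower in MRC+L (adjusted p = 0.00472) and 2.27-fold in MRC (adjusted p = 0.0155), and S100a7a 2.93-fold (adjusted p = 0.000405) and 2.12-fold (adjusted p = 0.00348), all by edgeR. S100a4, which binds Anxa2 as well, was near the detection limit at 0.1775 to 0.2701 CPM in MRC+L, 0.3166 to 0.9919 CPM in MRC and 1.369 to 4.293 CPM in PBS. It passed the filter on low counts only with the PBS libraries, and was not tested in MRC+L against MRC. Such a gene can hardly be called other than lower, and it is part of the S100 counts and medians against PBS given here. PBS replicate 2 was the highest library for each of these S100 genes. Without it 10 and 8 S100 genes were lower in MRC+L and in MRC, and the count in MRC was 3 without MRC replicate 1 or without MRC replicate 2.

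Per length, Anxa2 stood to S100a10 at a ratio of 1.03, 0.935 and 0.982 in MRC+L, 0.965, 1.04 and 0.937 in MRC, and 0.923, 0.735 and 0.929 in PBS. All exposed libraries lay above all PBS libraries, and the lowest ratio was that of PBS replicate 2. Anxa1 stood to S100a11 at 0.446, 0.481 and 0.518 in MRC+L, 0.569, 0.42 and 0.467 in MRC, and 0.354, 0.24 and 0.37 in PBS. Here too the exposed libraries lay above PBS. The short S100 genes and the longer annexins sit in different parts of the length skew of PBS replicate 2, whose part in these ratios was not tested.

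Anxa2 with S100a10 serves the plasminogen system as a surface receptor. Of 7 tested genes of that system, 2 were higher and 3 lower in MRC+L, beside 21.8% and 24.5% of all genes. In MRC 3 were higher and 3 lower, beside 17.8% and 19.8%. In MRC 1 was higher without PBS replicate 1, and likewise without MRC replicate 1 or 3. Plau, the urokinase activator, had 35.11, 34.34 and 32.54 CPM in MRC+L, 47.75, 41.98 and 43.5 CPM in MRC, and 156.3, 147.4 and 138.1 CPM in PBS. The 3 groups did not overlap, and Plau was 4.33-fold lower in MRC+L (adjusted p = 9.99e-07) and 3.32-fold lower in MRC (adjusted p = 2.68e-06) than in PBS, and 1.3-fold lower in MRC+L than in MRC (adjusted p = 0.0101), by edgeR. Serpine2, an inhibitor of serine proteases, and Plgrkt, a plasminogen receptor, were lower in both exposed groups, by 2.01-fold and 1.74-fold in MRC+L (adjusted p = 5.15e-05 and 0.00359) and by 1.75-fold and 1.62-fold in MRC (adjusted p = 0.000256 and 0.00871, edgeR). Plasminogen itself, Plg, had 0 to 6 counts in a library.

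Among genes of calcium-dependent membrane repair, 8 were tested, of which 6 were lower and 1 higher in MRC+L and 5 lower and 1 higher in MRC, beside 24.5% lower and 21.8% higher of all genes in MRC+L and 19.8% and 17.8% in MRC. In MRC 3 were lower without MRC replicate 1 or MRC replicate 3. Cavin1, a coat protein of caveolae, averaged 182.8 ± 7.96 CPM in MRC+L, 208.1 ± 15.2 CPM in MRC and 445.4 ± 14.8 CPM in PBS (SD, n = 3 each). It was 2.44-fold and 2.14-fold lower in the exposed groups (adjusted p = 8.33e-06 and 2.93e-05, edgeR). Calpains are proteases that calcium activates at a membrane wound. Their subunit genes Capn1, Capn2 and Capns1 were lower in both, Capn1 by 1.89-fold in each (adjusted p = 0.000179 in MRC+L and 0.000243 in MRC, edgeR). Syt7, a calcium sensor of lysosome exocytosis, averaged 58.06 ± 2.81 CPM in MRC+L, 55.02 ± 4.07 CPM in MRC and 15.79 ± 3.36 CPM in PBS, which was 3.67-fold and 3.48-fold higher (adjusted p = 1.29e-05 and 2.27e-05, edgeR). Capns1 was also lower in MRC+L than in MRC, by 1.17-fold (adjusted p = 0.035, edgeR). Dysf and Trim72, known repair proteins of muscle, had 0 to 5 and 0 to 12 counts in a library.

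**Figure D4:**
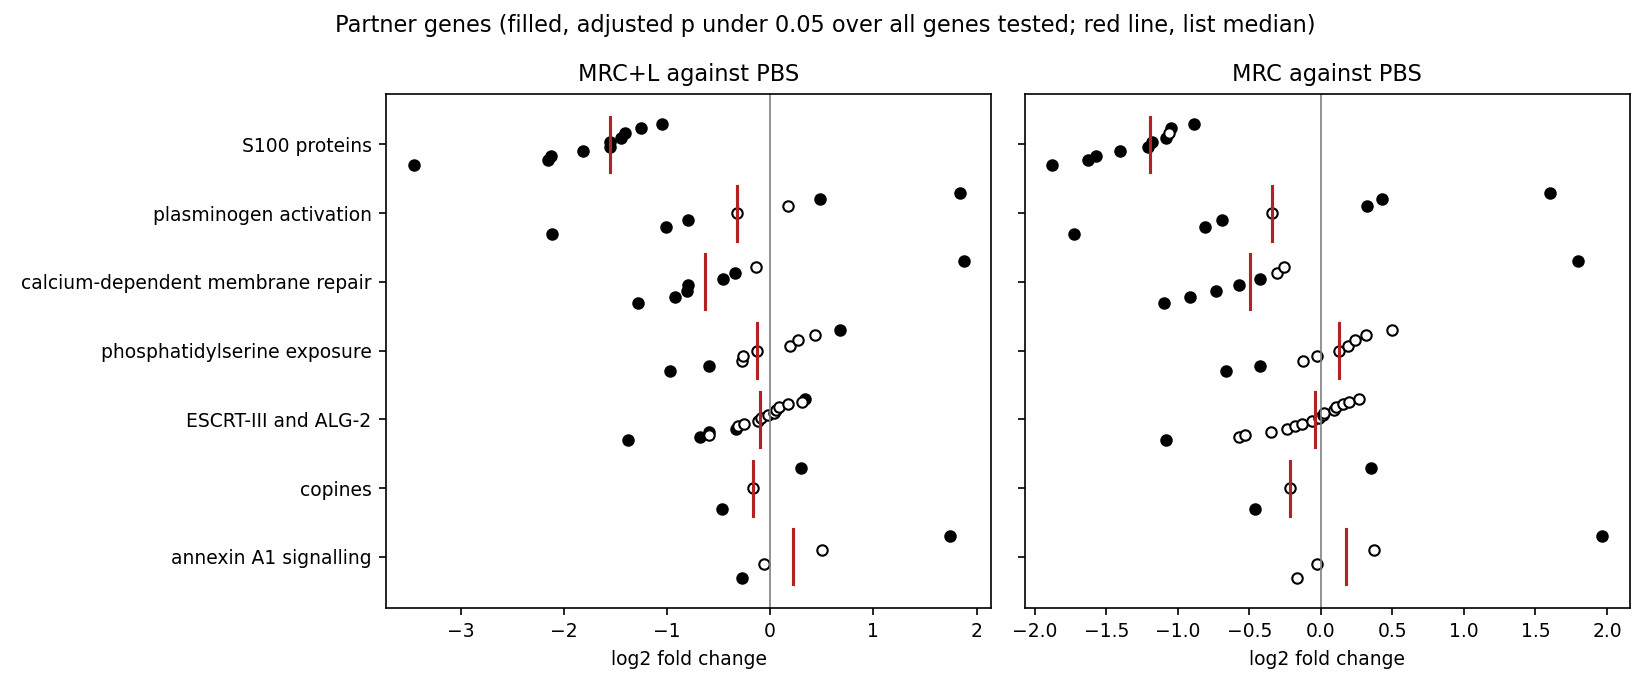
Log2 fold change (x axis) of the tested genes of the 7 partner lists (rows) in MRC+L against PBS and MRC against PBS, with filled points for an adjusted p under 0.05 and a red line at each list's median. All S100 points lie left of 0, with medians of -1.55 and -1.20, and the ESCRT-III and ALG-2 medians lie at -0.10 and -0.04.

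The next list holds genes that expose or hide phosphatidylserine, the lipid that annexins bind. Of 9 tested, beside the same shares of all genes, 1 was higher and 2 lower in MRC+L, and 0 higher (1 at an unadjusted p under 0.05, 0 by DESeq2) and 2 lower in MRC. The scramblase-family genes Plscr1 and Plscr4 were the lower ones, Plscr1 by 1.51-fold in MRC+L (adjusted p = 0.00188) and 1.34-fold in MRC (adjusted p = 0.0139), and Plscr4 by 1.96-fold (adjusted p = 0.00674) and 1.58-fold (adjusted p = 0.042), by edgeR. Atp11a, a flippase that returns the lipid to the inner leaflet, was 1.6-fold higher in MRC+L (adjusted p = 0.0258, edgeR), and in MRC it was not called (adjusted p = 0.0919). Without PBS replicate 2 the list had 2 higher and 3 lower in MRC+L, and 1 higher and 3 lower in MRC, while without MRC replicate 1 or 2 it had 0 lower in MRC. The Atp11a call was lost without MRC+L replicate 1 or 2.

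Of 16 ESCRT-III and ALG-2 genes, whose products pinch off damaged membrane and bind Anxa7 and Anxa11, all were tested, with 1 higher and 4 lower in MRC+L (21.8% and 24.5% of all genes) and 0 higher and 1 lower in MRC (17.8% and 19.8%), where 0 were higher and 4 lower at an unadjusted p under 0.05 and 0 and 2 by DESeq2. Chmp6, an ESCRT-III subunit, was 2.6-fold lower in MRC+L (adjusted p = 0.000421) and 2.12-fold lower in MRC (adjusted p = 0.00205) by edgeR. Pef1, a partner of ALG-2, was 1.5-fold lower in MRC+L (adjusted p = 0.00932, edgeR), and in MRC it was not called (adjusted p = 0.0907). Chmp4b, another ESCRT-III subunit, was 1.6-fold lower in MRC+L (adjusted p = 0.0173, edgeR) and was not called in MRC (adjusted p = 0.0557). Ist1, which binds ESCRT-III, was the gene called higher, 1.27-fold in MRC+L (adjusted p = 0.0182, edgeR), and it was not called in MRC (adjusted p = 0.143). Without PBS replicate 2 this list had 3 higher and 4 lower in MRC+L, and 3 higher and 2 lower in MRC. Without PBS replicate 3 the lower ones numbered 7 in MRC+L and 5 in MRC, and without MRC+L replicate 2 they numbered 2 in MRC+L, with 0 higher.

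Of the copines, another family of calcium-dependent membrane binders, 3 of 9 were tested. Cpne2 was 1.38-fold lower in both exposed groups (adjusted p = 0.00432 in MRC+L and 0.00576 in MRC), and Cpne8 was 1.23-fold and 1.27-fold higher (adjusted p = 0.0459 and 0.0275, edgeR), calls that were lost without PBS replicate 1 or any 1 MRC library, and in MRC+L also without any 1 MRC+L library. In the list around Anxa1 signalling, 4 of 9 genes were tested, and Pla2g4a, the cytosolic phospholipase A2, averaged 136.4 ± 7.07 CPM in MRC+L, 159.4 ± 18.5 CPM in MRC and 40.76 ± 4.16 CPM in PBS (SD, n = 3 each). That was 3.35-fold and 3.91-fold higher (adjusted p = 4.62e-06 and 4.25e-06, edgeR). Fkbp5, a target of the glucocorticoid receptor, was 1.21-fold lower in MRC+L (adjusted p = 0.0437) and was not called in MRC (adjusted p = 0.205), by edgeR, and the MRC+L call was lost when any 1 library other than PBS replicate 2 was left out. The receptor gene Nr3c1 was 1.42-fold higher in MRC+L and missed the threshold (adjusted p = 0.0553, edgeR). The formyl peptide receptor genes Fpr1, Fpr2 and Fpr3 had 3 to 12, 0 to 9 and 0 to 1 counts in a library, below the filter.

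In MRC+L against MRC, the partner lists gave 0 higher and 2 lower calls in all, Plau and Capns1, by edgeR over the 6 libraries. Over all 12955 genes tested, 3.13% were called higher and 1.91% lower, and nothing is read from the partner counts. The Capns1 call was lost without MRC replicate 1 or 3 or any 1 MRC+L library, and the Plau call without MRC+L replicate 2 or 3. The S100 genes had 0 calls, with 5 lower at an unadjusted p under 0.05 and 2 lower by DESeq2. The phosphatidylserine list had 0 calls, with 2 higher and 2 lower at an unadjusted p under 0.05 and 1 higher by DESeq2, and the ESCRT-III and ALG-2 list had 0, with 1 higher and 3 lower at that level and 0 by DESeq2. The Anxa1 signalling genes had 0, with 1 in each direction at that level and 0 by DESeq2, and the copines had 0 at each of these.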

How the data were processed

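Per the labels' protocols, Trizol RNA of the 9 samples went into libraries with the Illumina TruSeq RNA kit. Each deposited table holds raw gene counts of 1 library that the authors obtained from featureCounts 2.0.1 (read pairs over exons, Ensembl 104 genes of GRCm39), per the file headers. Counting ignored strand, so reads of overlapping genes on opposite strands cannot be told apart. For the aligner, the sources used here give no name. Symbols were matched by gene ID for 52083 of 55416 rows (94.0%).

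The annexins and the partner lists were chosen with earlier results of these data known. Counts were tested in R 4.3.3 with the quasi-likelihood test of edgeR 4.0.16 (TMM factors, minimum count 10 and minimum total 15), on all 9 libraries for the comparisons with PBS (13439 genes kept) and on 6 libraries for MRC+L against MRC (12955 genes kept). Calls needed a Benjamini-Hochberg adjusted p under 0.05 over all genes kept. In each comparison the set of libraries used, 9 or 6, gave more calls over all genes than the other set. The alternatives were DESeq2 1.42.0, RLE factors, no filter, voom of limma 3.58.1 with library weights, a replicate block, other sets of libraries and each library left out. The scripts were tested on simulated data. Replicates were compared by a chi-square test of their counts, which per degree of freedom was 3.83 to 157; no pair agreed within sampling noise. Correlations used log2 CPM with a prior count of 2. Text names all annexins and, of each partner list, up to 4 tested genes with the smallest adjusted p in a comparison. Of the genes this rule names, 1 is not reported here. Genes named outside that rule (cell type markers, genes overlapping an annexin, and list members with few counts) were chosen after their values were seen. A count of 0 leaves room for 3 counts, which covers counting error only. Protein sequences were not used here. Python 3.11.15, pandas 2.3.3 and matplotlib 3.10.9 served for tables and figures.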

Additional observations from a re-analysis of the deposited data

How the results depend on the processing

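No annexin fold change changed its direction under any alternative. Of the annexin values under an alternative, 392 kept their side of the threshold, 16 passed it only there and 12 no longer passed it. In both comparisons with PBS, 1 annexin was higher in each alternative, and 5 to 8 were lower. Voom with library weights called 8851 genes for MRC against PBS, where edgeR called 5050, and 9856 for MRC+L against PBS, where edgeR called 6212. Fits of edgeR to the 6 libraries of the groups compared called fewer, 3706 and 4895 in the same order. For MRC against PBS the adjusted p was then larger for every annexin called with 9 libraries. It was 0.000665 for Anxa8, 0.00105 for Anxa6, 0.00551 for Anxa5, 0.00947 for Anxa9, 0.0118 for Anxa2 and 0.016 for Anxa1, and Anxa3 lost its call. For MRC+L against MRC edgeR called 654 genes with 6 libraries and 0 with all 9 (573 at an unadjusted p under 0.05, and 25 by DESeq2 with all 9 libraries), and 137 to 1015 with 1 library left out. The number of annexins lower in that comparison was 1, against 3 with DESeq2, 3 with no filter, 3 with voom, 2 with the replicate block, 0 with all 9 libraries, and 0 to 3 with 1 library left out. The cause was not tested. Libraries that share a replicate number did not deviate together (r = -0.185 to 0.0385). With 3 libraries a group and the length skew of PBS replicate 2, these values cannot exclude that the numbers pair the samples. The replicate block called 6 annexins lower and 1 higher in both comparisons with PBS, with 4283 and 5490 genes called for MRC and MRC+L. Other scalings moved the median of all genes by at most 0.028 (log2). Partner counts were within 1.5 times in 473 cases and moved further in 115. Depth limited Anxa8 in PBS (15 to 32 counts) and genes below the filter, and the spread of PBS limited the comparisons with it.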
